A study of Homo sapiens with 2 samples.

Results

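The nuclear tRNA genes of chromosomes 1 and 6 were taken from the RefSeq gene table of GRCh38.p14 by their biotype, which gave 253 genes, 98 on chromosome 1 and 155 on chromosome 6, of 443 nuclear tRNA genes in that table. Of these, 239 lay on the chromosome sequence itself (85 and 154) and are described below, while 14 (13 and 1) lay on other scaffolds and could not be placed against the peaks. The data came from CUT & Tag, in which an antibody brings a transposase to a protein on the DNA, with an anti-Flag antibody. The cells were TFK-1, an established human line derived from an extrahepatic cholangiocarcinoma. LV-HOXA5 cells carried a lentivirus for Flag-tagged HOXA5, a homeodomain transcription factor, and LV-HOXA5-NC cells carried the control lentivirus, both as stable lines selected with puromycin. Each condition had 1 library from 1000000 cells, so there were no replicates and the conditions were not tested against each other. HOXA5 was expressed from the lentivirus, and the anti-Flag antibody is directed at the tag, not at untagged HOXA5. The LV-HOXA5-NC library also gave 635 peaks, against 8043 for LV-HOXA5, so a peak alone does not show the tagged protein.

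A tRNA gene is short, and RNA polymerase III transcribes it from a promoter inside the gene. The factor TFIIIC recognises the A box and the B box within the transcribed sequence and places TFIIIB just upstream, which recruits the polymerase. tRNA genes are present in many copies, several of which can encode the same mature sequence, and the cluster on the short arm of chromosome 6, next to histone genes, and those on the long arm of chromosome 1 are among the largest in the human genome. In the gene symbols, the letters give the amino acid and the anticodon, the next number the family and the last number the copy, and genes with the same family number share their mature sequence. TRX-CAT is the initiator tRNA, which carries the methionine that starts a protein.

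For 7 of the tRNA genes the reference windows of neighbouring genes, taken from RefSeq (GRCh38.p14), held the whole gene sequence, and the B box core GTTCGA was found in 6 of them on the strand used here, which was chosen as the one that held it. The A box letters TGGCNNAGT and the homeodomain core TAATTA were in none of the 7. The A box was searched as this fixed string only, so a gene without it cannot be said to lack an A box. Over 35116 windows of 300 bases searched on both strands, 2.3% held the B box core, 3.43% the A box letters and 4.84% TAATTA, against 9, 1 and 0 of the 12 windows that overlapped a tRNA gene of the set. The motifs TGGCNNAGT and GTTCGA do not overlap each other, TAATTA reads the same on both strands, and a match is a description only. The first pair of sequences is shown because both are asparagine tRNA genes of nearly the same sequence, and only TRN-GTT6-1 lay at a peak. The other 2 are genes without a peak that lay 3403 bp (TRI-AAT8-1) and 1973 bp (TRL-AAG2-2) from the nearest one. Capitals mark the B box core, which begins at base 54 in the first 3 and at base 62 in the last.
TRN-GTT6-1: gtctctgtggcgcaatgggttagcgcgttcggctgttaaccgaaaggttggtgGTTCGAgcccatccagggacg
TRN-GTT4-1: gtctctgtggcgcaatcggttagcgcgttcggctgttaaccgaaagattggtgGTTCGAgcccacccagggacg
TRI-AAT8-1: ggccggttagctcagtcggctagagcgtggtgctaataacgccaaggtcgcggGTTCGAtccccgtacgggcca
TRL-AAG2-2: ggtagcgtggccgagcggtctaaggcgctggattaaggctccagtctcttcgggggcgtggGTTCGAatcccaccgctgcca
Both asparagine tRNA genes were 74 bases long and differed at 3 bases, counted from 1 at the 5′ end of TRN-GTT6-1, namely G17C, G47A and T65C. TRN-GTT6-1 (chr1:143735920-143735993, minus strand) lay wholly inside an LV-HOXA5 peak, whereas TRN-GTT4-1 (chr1:16889677-16889750, plus strand) was 6217 bp from the nearest peak. TRI-AAT8-1 is at chr6:27668583-27668656 on the plus strand and TRL-AAG2-2 at chr6:28943622-28943703 on the minus strand.

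Windows of 300 bases that lay wholly inside a peak show the sequence under the signal at a tRNA gene of each chromosome. The first (chr1:143735797-143736096, plus strand) holds all of TRN-GTT6-1, with the B box core in capitals as read on the opposite strand. The second (chr6:28896280-28896579, plus strand) holds part of TRL-CAA1-1, a leucine tRNA gene, with the A box letters in capitals as read on the opposite strand.
TRN-GTT6-1 window: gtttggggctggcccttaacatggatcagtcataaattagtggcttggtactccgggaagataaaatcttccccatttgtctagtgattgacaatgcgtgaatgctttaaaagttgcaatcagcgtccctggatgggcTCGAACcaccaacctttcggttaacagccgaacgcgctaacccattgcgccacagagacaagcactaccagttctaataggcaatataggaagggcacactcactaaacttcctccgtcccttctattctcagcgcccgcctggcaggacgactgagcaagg
TRL-CAA1-1 window: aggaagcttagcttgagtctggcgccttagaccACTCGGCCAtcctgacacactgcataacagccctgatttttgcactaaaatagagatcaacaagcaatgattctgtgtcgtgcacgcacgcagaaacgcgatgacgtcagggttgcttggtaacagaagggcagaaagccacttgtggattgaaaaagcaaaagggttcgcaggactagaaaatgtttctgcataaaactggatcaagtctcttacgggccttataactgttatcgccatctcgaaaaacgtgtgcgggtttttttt
The peak at TRN-GTT6-1 (chr1:143735706-143736344) had 11 fragments of pileup and a 3.93-fold enrichment, and its summit was 39.5 bp from the middle of the gene. The peak at TRL-CAA1-1 (chr6:28895858-28896664) reached 14 fragments with a 4.68-fold enrichment, with its summit 94.5 bp from the middle of the gene. Pileup is the number of fragments over the summit, not scaled for depth, and fold enrichment is relative to the local background of the same library.

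An LV-HOXA5 peak lay within 1 kb of an end of 55 of the 239 tRNA genes (23%, exact 95% interval 17.8% to 28.9%). The share was 34.1% on chromosome 1 (29 of 85 genes, interval 24.2% to 45.2%) and 16.9% on chromosome 6 (26 of 154 genes, interval 11.3% to 23.8%). Among all 58966 nuclear genes the share was 6.85%, and among the 19866 protein-coding genes it was 13.1%. The shares of both chromosomes stood between those of the protein-coding genes and of the 190 tRNA genes of the other chromosomes, of which 93 (48.9%, interval 41.6% to 56.3%) had a peak. Intervals are Clopper-Pearson intervals, which cover counting error only, and neighbouring genes that share a peak are not independent.

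The interval of chromosome 1 lay above that of its own protein-coding genes (11.3%, interval 9.98% to 12.8%), whereas that of chromosome 6 overlapped it (10.5%, interval 8.67% to 12.5%). A tRNA gene offers far less sequence within 1 kb of its ends than most protein-coding genes, as its own windows overlap. Against the other chromosomes, the interval of chromosome 6 lay below and that of chromosome 1 overlapped. The order depended on how genes were counted. With each cluster counted once, where genes up to 10 kb apart were joined, 34.3% of 108 clusters of chromosomes 1 and 6 (interval 25.4% to 44%) and 44.4% of 108 clusters of the other chromosomes (interval 34.9% to 54.3%) had a peak. The share was then 46.9% of 49 clusters on chromosome 1 (interval 32.5% to 61.7%), above that of the other chromosomes with overlapping intervals, and 23.7% of 59 on chromosome 6 (interval 13.6% to 36.6%), whose interval overlapped too. A low share was not particular to chromosome 6, as 2 of the 22 tRNA genes of chromosome 7 (9.09%, interval 1.12% to 29.2%) had a peak, against 16 of 18 on chromosome 5 (88.9%, interval 65.3% to 98.6%).

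When all LV-HOXA5 peaks were moved by 50 kb, 8 of the 239 tRNA genes (3.35%, interval 1.46% to 6.49%) lay within 1 kb of one, for moves in either direction. On chromosome 1 this left 2 of 85 genes (2.35%) and on chromosome 6 6 of 154 genes (3.9%) for each direction. The tRNA genes of the other chromosomes kept 6 and 4 of 190. The peaks thus lay at the tRNA genes more often than in their surroundings on both chromosomes, with intervals that did not overlap (for chromosome 6, 1.44% to 8.29% after the move). The share of all protein-coding genes fell likewise, from 13.1% to 1.93% and 1.85%, so this contrast was not particular to tRNA genes. A peak covered an end of 28 of the 239 genes (11.7%, interval 7.93% to 16.5%), 14 on each chromosome, against 55 of 190 (28.9%, interval 22.6% to 36%) elsewhere. For protein-coding genes this share was 6.7%, with 6.25% on chromosome 1 and 4.51% on chromosome 6.

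**Figure D1:**
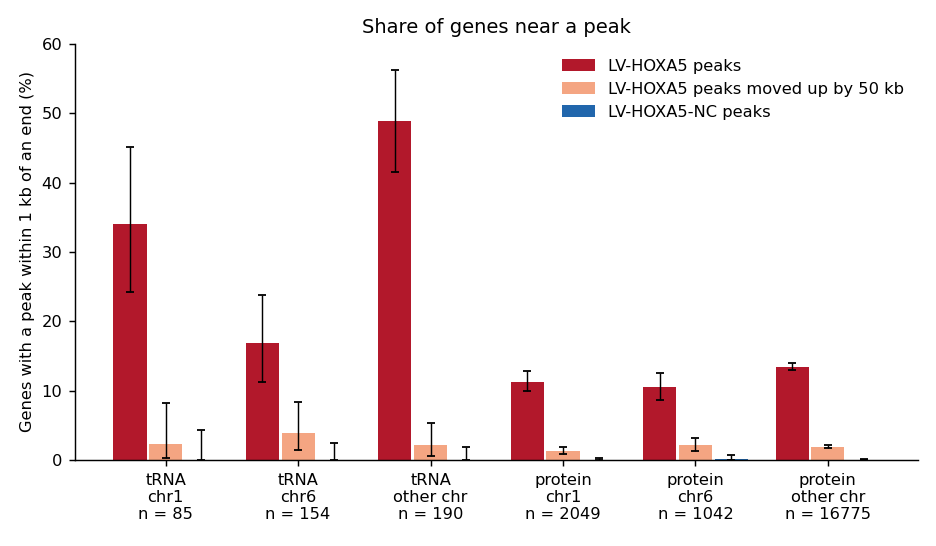
Bars give the percentage of genes with a peak within 1 kb of an end, for tRNA genes and protein-coding genes of chromosome 1, chromosome 6 and the other chromosomes, and error bars give exact 95% binomial intervals. The LV-HOXA5 share was 34.1% and 16.9% for the tRNA genes of chromosomes 1 and 6 and 48.9% for the others, fell to 3.9% or less when peaks were moved up by 50 kb, and was 0 for LV-HOXA5-NC peaks at all 3 groups of tRNA genes.

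No LV-HOXA5-NC peak lay within 1 kb of any of the 239 tRNA genes (upper limit of the interval 1.53%) or of the 190 others (upper limit 1.92%), where 0.132% of all nuclear genes had one. The nearest LV-HOXA5-NC peak was 71376 bp from a tRNA gene of chromosome 1 and 1997654 bp from one of chromosome 6, although the list held 65 and 16 peaks on these chromosomes. The LV-HOXA5-NC library held 1948734 fragments after removal of duplicates, 12.4% of the 15778555 fragments of the LV-HOXA5 library. Scaled to that depth, the peaks at the tRNA genes of chromosomes 1 and 6 had a median pileup of 1.98 fragments and a highest of 4.82, and 3 of the 43 reached 4, the lowest pileup in the LV-HOXA5-NC list. For nearly all of these genes a signal of the same density was therefore not detectable at this depth in LV-HOXA5-NC, and its absence from the list does not show a difference between the conditions.

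The 55 genes were served by 43 different peaks, 23 on chromosome 1 and 20 on chromosome 6, which were 3.23% of the 713 LV-HOXA5 peaks of chromosome 1 and 6.78% of the 295 of chromosome 6. There were 10 peaks shared by 22 genes, with up to 3 genes at 1 peak. The median pileup was 16 fragments (95% interval of the median 14 to 19, range 8 to 39), against 24 fragments (interval 20 to 25, range 12 to 55) at the 58 peaks of the other tRNA genes and 17 fragments in the whole list. The median fold enrichment was 4.55 (interval 4.22 to 5.09, range 3.23 to 7.94) at the 43 peaks, 4.46 (interval 4.11 to 4.92) at the 58 and 4.82 in the whole list. The intervals of height thus lay apart between the sets of tRNA peaks while those of enrichment overlapped. By chromosome, the height on chromosome 6 lay below that elsewhere (median 15 fragments, interval 13 to 18). On chromosome 1 the interval overlapped (median 17 fragments, interval 14 to 24). The local background recovered from pileup and fold enrichment, as (pileup + 1) / fold − 1, moved with the heights, with medians of 3.06 fragments on chromosome 1, 2.33 on chromosome 6 and 4.25 (interval 3.63 to 5.11) elsewhere. Its part in the result was not tested. The peaks at the tRNA genes were of ordinary height for this library, since 17 of the 43 (39.5%) exceeded the list median in pileup, and 17 did in fold enrichment.

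**Figure D2:**
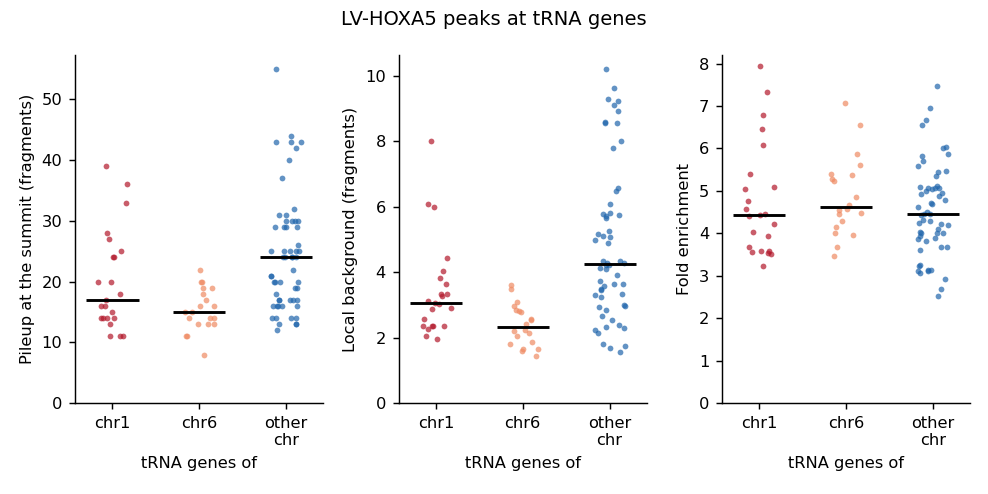
Each point is an LV-HOXA5 peak within 1 kb of a tRNA gene of chromosome 1 (23 peaks), chromosome 6 (20) or another chromosome (58), with the pileup at the summit, the local background and the fold enrichment on linear axes, and lines give medians. Median pileups were 17, 15 and 24 fragments and median fold enrichments 4.44, 4.63 and 4.46.

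Most peaks at the tRNA genes lay on the gene or directly beside it. Only peaks within 1 kb of a gene end were counted, so this nearness was partly fixed in advance. Of the 43 peaks, 27 (62.8%) covered an end of a gene of the set, and the summit lay within 250 bp of the middle of the closest gene in 25 (58.1%), within 100 bp in 8 and inside the gene in 5. The median distance from summit to gene middle was 219 bp, against 180.2 bp at the other tRNA genes, where 38 of 58 summits (65.5%) lay within 250 bp. Fragments of paired reads span more than the length of a tRNA gene, so these offsets do not place the protein within the gene or beside it. The gene table gives no strand, and upstream and downstream offsets were not told apart.

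**Figure D3:**
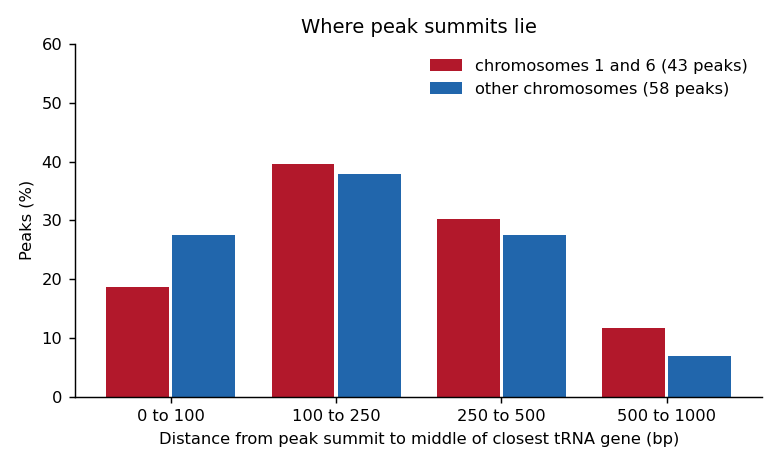
Bars give the percentage of LV-HOXA5 peaks by the distance in bp from the summit to the middle of the closest tRNA gene, for 43 peaks on chromosomes 1 and 6 and 58 on other chromosomes, in classes of unequal width. In both sets the class of 100 to 250 bp held the most peaks, 17 of 43 and 22 of 58.

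The highest peaks were on chromosome 1. TRK-TTT3-1 and TRK-TTT3-2, a pair of lysine tRNA genes with the same mature sequence, shared the highest one (chromosome 1, 204506412 to 204507098), with 39 fragments at the summit, a 7.94-fold enrichment and a −log10 q-value of 21. The glycine tRNA genes TRG-CCC1-1 and TRG-CCC1-2, again identical copies, lay apart on the short arm and each had a peak of its own, with pileups of 36 and 33 fragments and 6.8-fold and 7.32-fold enrichment. That of TRG-CCC1-1 covered an end and that of TRG-CCC1-2 began 21 bp away. Beside the latter, the glutamate tRNA gene TRE-TTC3-1 lay 615 bp from a peak of 28 fragments, whose 3.23-fold enrichment was the lowest of the 43.

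TRX-CAT1-1, a gene for the initiator tRNA (chromosome 1, 153671250 to 153671321), lay inside a peak of 27 fragments with a 6.46-fold enrichment, whose summit was 1.5 bp from the middle of the gene. An end of ILF2, a protein-coding gene, was 257 bp from this tRNA gene, and both lay within 1 kb of the peak. TRQ-CTG4-1, for glutamine, had a peak of 25 fragments with a 6.08-fold enrichment, and TRE-TTC4-1, for glutamate, one of 24 fragments with 3.58-fold enrichment 89 bp away. TRH-GTG1-1, for histidine, had an end covered by a peak of 24 fragments with 3.53-fold enrichment. This peak also lay 926 bp from TRG-TCC2-1 and 870 bp from TRK-CTT2-1. With 24 to 39 fragments, all of these peaks stood above the list median of 17 fragments in pileup, while 3 of them lay below its median of 4.82 in fold enrichment.

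On chromosome 6 pileups were lower, from 8 to 22 fragments, and the enrichments reached similar values. TRL-TAA4-1, for leucine, had the highest of both, with 22 fragments and a 7.07-fold enrichment (peak at 27230049 to 27230628). TRR-TCG5-1, for arginine, had 15 fragments and a 6.56-fold enrichment. The serine tRNA genes TRS-CGA3-1 and TRS-TGA4-1 each had 19 fragments, with 5.86-fold and 5.62-fold enrichment. The lowest was that of TRA-TGC7-1, for alanine, with 8 fragments, a 3.46-fold enrichment and a −log10 q-value of 1.47. The pileup of 8 is also the lowest in the whole LV-HOXA5 list.

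The threshold of 1 kb separated neighbours. Just inside it were TRQ-TTG3-2 at 959 bp, TRG-TCC2-1 at 926 bp and TRK-CTT2-1 at 870 bp, and just outside were TRR-ACG2-4 at 1422 bp, TRQ-TTG3-1 at 1510 bp and TRD-GTC2-7 at 1583 bp. TRQ-TTG3-1 and TRQ-TTG3-2 are identical glutamine tRNA genes beside the same peak. With 250 bp in place of 1 kb, 18% of the 239 genes had a peak, and with 3 kb 27.6% did.

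Of the 49 clusters of chromosome 1, 39 were single genes, and 16 of these 39 (41%) had a peak. The other 10 clusters held 46 of the 85 genes. Of these 10, 7 (70%) had a peak, at 13 of the 46 genes (28.3%). In a stretch of the short arm (16520585 to 16889750), a peak lay at 5 of 8 genes, with 3 of the 4 glycine genes and both glutamate genes among them and neither of the asparagine genes. These 5 peaks were 35.7% of the 14 LV-HOXA5 peaks in that span. Among the rest, the peak 10911 bp from TRG-CCC4-1 had 64 fragments, more than any peak at a tRNA gene of the set. In the pericentromeric stretch of the long arm (143691474 to 148529330), 12 of 25 genes had 1 of 10 peaks, and those 10 were 23.8% of the 42 LV-HOXA5 peaks in that span. Of the 17 asparagine tRNA genes, all on chromosome 1, 9 lay in this stretch and 5 of these had a peak. Over all 17, 6 had a peak within 200 bp with pileups of 11 to 20 fragments, while the others had none within 5 kb. The TRN-GTT2 family, with identical mature sequence, had 8 placed copies over all chromosomes, 4 of them on chromosome 1. Of these 4, TRN-GTT2-1 and TRN-GTT2-7 were covered by a peak, and TRN-GTT2-8 and TRN-GTT2-2 lay 6657 and 28524 bp from the nearest.

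The largest cluster, with 24 genes between 161440171 and 161480636 on chromosome 1, had no peak, and the nearest one was 40618 bp away. It is a tandem array in which aspartate (TRD-GTC2), leucine (TRL-CAG1), glycine and glutamate (TRE-CTC1) genes recur, and the 5 aspartate copies followed each other at steps of 7381 to 7418 bp. It belonged to a run of 27 tRNA genes without a peak over 102 kb (161422093 to 161523917), in which no LV-HOXA5 peak was listed at all. On either side of the run, TRV-CAC1-1, for valine, had a peak of 14 fragments 147 bp away, and TRG-TCC2-6 and TRL-CAG1-6 shared one of 16 fragments. These last 2 genes have the same mature sequences as genes inside the array. How fragments that align equally well to several copies were treated is not given in the sources used here, and its part in the result was not tested.

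Copies were counted from the symbols in the gene table, not from sequence, and 8 genes whose symbol has no family number were counted as single. Of the 121 genes that were alone under their symbol, 23 had a peak (19%, interval 12.4% to 27.1%). Of genes in families of 2 to 4 copies 11 of 46 did (23.9%, interval 12.6% to 38.8%), and of those in families of 5 or more 21 of 72 did (29.2%, interval 19% to 41.1%). The intervals of the 3 classes overlapped, and the same held for the other chromosomes, with 40.7%, 53.2% and 57.9%.

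On chromosome 6, 144 of the 154 genes lay between 26286526 and 28989083 on the short arm, and all 26 genes with a peak were among them. With a margin of 1 kb on either side, this span held 29 LV-HOXA5 peaks in all, of which 20 (69%) lay within 1 kb of a tRNA gene, and without the margin 28 and 19 (67.9%). The span also holds 53 protein-coding genes, 7 of which (13.2%) had a peak, and of 21 histone genes among them 6 did, at 3 peaks that were none of the 20. The peak in the margin, nearest to TRX-CAT1-2, an initiator tRNA gene (657 bp, 14 fragments, 3.97-fold), covered an end of the histone gene H4C8. The remaining 10 genes on chromosome 6 had no peak, including 6 near the centromere (57800211 to 57856473), where the nearest peak was 724813 bp away.

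Peaks were unevenly spread within the short arm group. From 26286526 to 26331515, 8 of 13 genes had 1 of 5 peaks within 1 kb, with the highest at TRR-TCG2-1, for arginine (20 fragments, 5.28-fold), and there was no other LV-HOXA5 peak within 1 kb of this stretch. Of the 5, 4 lay in the stretch itself and that of TRX-CAT1-2 just before it. The next 13 genes (26521208 to 26594962) had 1 peak at TRR-ACG1-2 and TRV-CAC1-6, which also covered an end of the protein-coding gene HMGN4. Then 18 genes between 26673362 and 26828299 had none, with the nearest peak 127787 bp away, and these were 10 alanine, 3 isoleucine and 5 elongator methionine genes. They lay in a run of 32 genes without a peak over 609 kb (26553503 to 27162344), which held 3 LV-HOXA5 peaks in all. Between 27478812 and 27795932, 5 of 33 genes had a peak each, and between 28474552 and 28989083 9 of 43 genes had 1 of 7 peaks.

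In the clusters of this arm with 5 or more genes within 10 kb of each other, 6 of 7 had a peak, while 1 had none. The highest in each were those of TRR-TCG2-1, TRS-AGA4-1 for serine (13 fragments, 4.86-fold), TRL-CAA3-1 for leucine (18 fragments, 5.37-fold), TRS-CGA3-1, TRA-TGC1-1 for alanine (11 fragments, 4.29-fold) and TRQ-CTG1-3 for glutamine (20 fragments, 4.55-fold). Over all 7 clusters 15 of 51 genes (29.4%) had a peak within 1 kb. Over the 6 with a peak it was 15 of 44 (34.1%), which leaving out the cluster without one could only raise. The share within these 6 ran from 16.7% to 58.3%, and it exceeded 50% in 1 of them, that of TRR-TCG2-1 with 7 of 12 genes. By comparison, 3 of the 23 single genes of chromosome 6 (13%) had a peak. In all its clusters of 2 or more genes, 23 of 131 genes (17.6%) did. The only cluster of 5 or more on chromosome 1 had a peak at 0 of 24 genes.

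**Figure D4:**
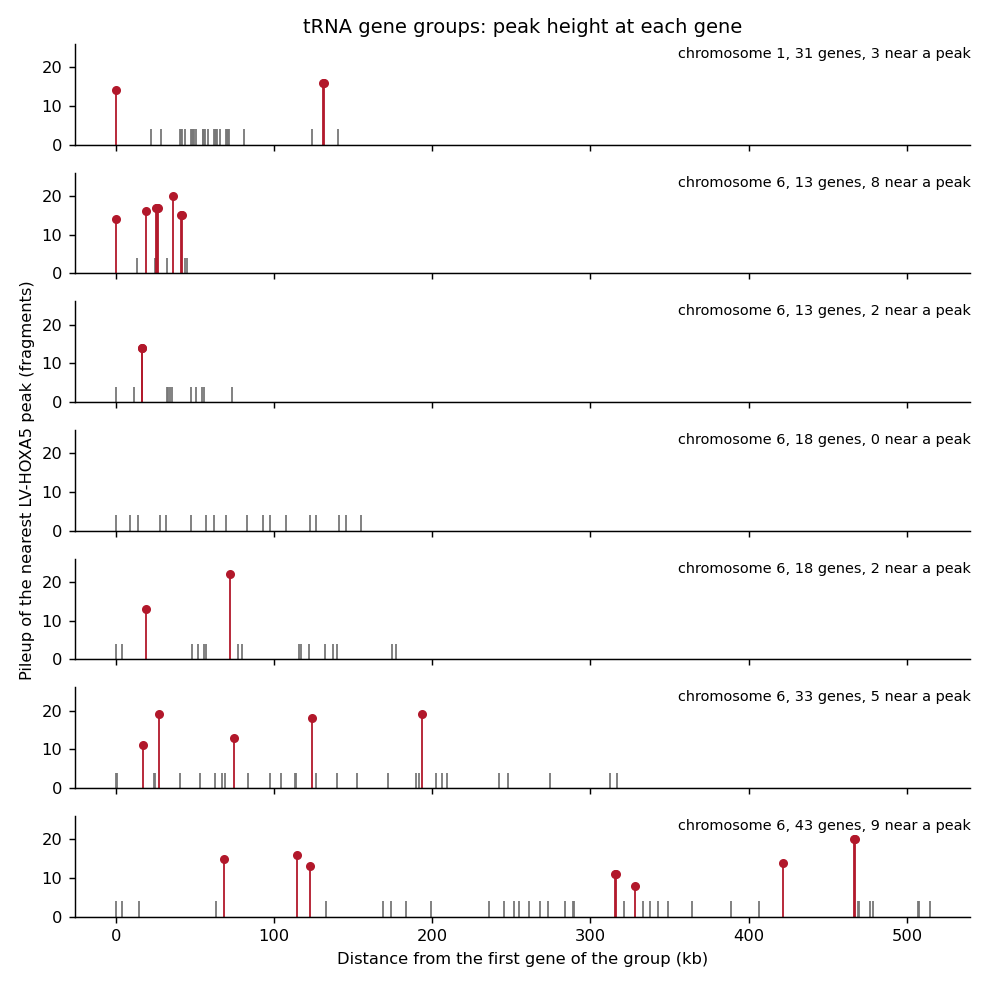
Each row is a group of at least 10 tRNA genes with at most 50 kb between neighbours, with genes placed by their distance in kb from the first gene. Red lines with points give the pileup in fragments of the LV-HOXA5 peak within 1 kb of a gene, and short grey ticks of fixed height mark genes without one. The group of 13 genes with 8 near a peak and the group of 18 with 0 both lie on chromosome 6.

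By amino acid, serine tRNA genes were most often near a peak among the classes with at least 10 genes, with 8 of 17 (47.1%, interval 23% to 72.2%), all on chromosome 6. Arginine had 5 of 13 (38.5%), asparagine 6 of 17 (35.3%) and leucine 6 of 19 (31.6%), of which 4 were among the 6 genes with the CAA anticodon. Glycine had 5 of 19 (26.3%), with 3 of 5 for CCC, 2 of 7 for TCC and 0 of 7 for GCC. Valine had 4 of 16 (25%), namely 4 of 10 for CAC and 0 of 5 for AAC. At the other end, alanine, the largest class, had 2 of 30 (6.67%, interval 0.818% to 22.1%) and isoleucine 1 of 15 (6.67%, interval 0.169% to 31.9%). All 22 genes with the alanine anticodon AGC lay on chromosome 6 without a peak, the nearest being 1953 bp and the median 135913 bp away.

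No gene for aspartate (8), threonine (10), elongator methionine (8), tyrosine (4), tryptophan (2) or cysteine (1) had a peak, 33 genes in 6 of the 21 classes. On the other chromosomes each of these 6 classes had peaks, with aspartate at 4 of 5, threonine at 6 of 10, elongator methionine at 2 of 3, tyrosine at 4 of 9, tryptophan at 2 of 5 and cysteine at 4 of 28 genes (14.3%). Alanine had a peak at 5 of 7 there and isoleucine at 3 of 8. The initiator tRNA had a peak at 3 of 7 genes here (42.9%, interval 9.9% to 81.6%). TRX-CAT1-1 lay inside a peak. TRX-CAT1-3 had only an end covered, by a peak of 17 fragments shared with TRS-TGA3-1 and TRQ-TTG3-2. The summit of that peak was 121.5 bp from the middle of TRX-CAT1-3. TRX-CAT1-4 to TRX-CAT1-7 lay 1608 to 81125 bp from the nearest peak. As the classes sit in different clusters, amino acid and position cannot be told apart here.

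**Figure D5:**
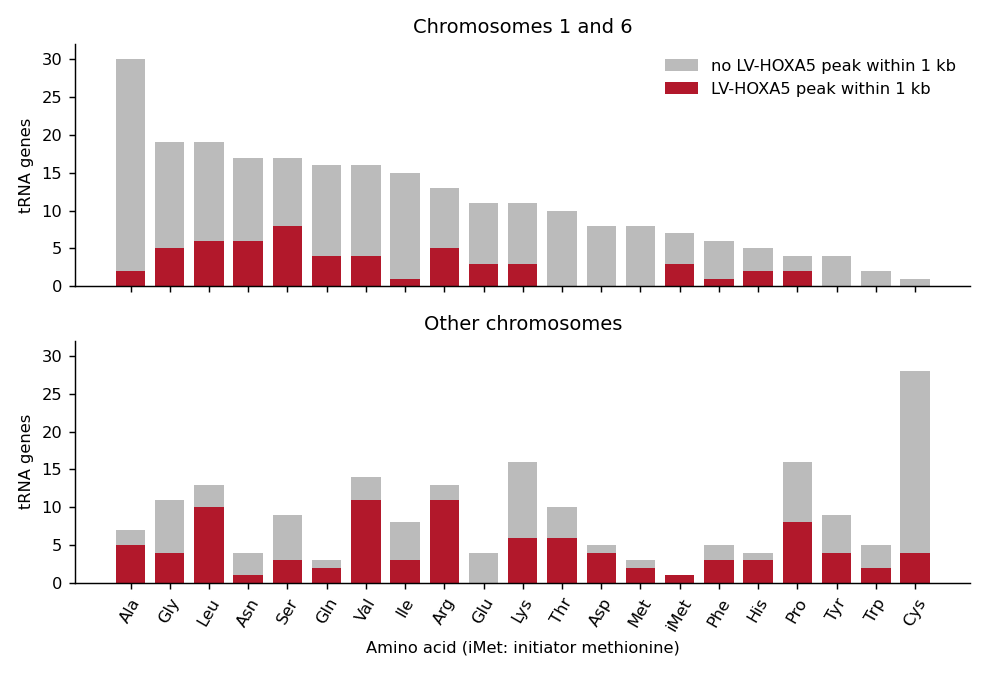
Bars give the number of tRNA genes for each amino acid, with the genes that had an LV-HOXA5 peak within 1 kb in red and the others in grey, on chromosomes 1 and 6 (top) and on the other chromosomes (bottom). Alanine had 2 of 30 genes near a peak on chromosomes 1 and 6 and 5 of 7 elsewhere, and serine had 8 of 17 and 3 of 9.

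Nearness to protein-coding genes moved with the peaks. Of the 17 tRNA genes with an end of a protein-coding gene within 3 kb, 11 had a peak (64.7%, interval 38.3% to 85.8%), against 44 of the 222 without one (19.8%, interval 14.8% to 25.7%). On the other chromosomes these shares were 63.4% (45 of 71) and 40.3% (48 of 119, interval 31.4% to 49.7%). Few tRNA genes of chromosomes 1 and 6 thus had such a neighbour. Among those without one, the share was 15.5% on chromosome 6 (interval 10.1% to 22.4%), below the interval of the other chromosomes, and 28.4% on chromosome 1 (interval 18.5% to 40.1%), which overlapped it. Only 5 of the 43 peaks had a protein-coding end within 1 kb, those of BCAR3, ILF2, PGBD2, H4C8 and HMGN4. Inside a protein-coding gene lay 9 of the tRNA genes, of which 5 had a peak, among them TRR-TCT1-1 in BCAR3 with 11 fragments.

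The other genes of the pathway were read the same way. Of 35 other small RNA genes made by RNA polymerase III, 20 had an LV-HOXA5 peak within 1 kb (57.1%, interval 39.4% to 73.7%). Of 2038 pseudogenes of such genes, 10 did (0.491%). These were RNU6, RN7SL, RNY and VTRNA pseudogenes, with none of RNA5S, RMRP or RPPH1, so the genes and pseudogenes differ in make-up. Among the 35 were 17 RNA5S genes of chromosome 1, and the 8 of these with a peak lay 234 to 963 bp from it. Some of these 8 shared a peak and are not independent, and their peaks had 2.54-fold to 4.16-fold enrichment. The highest fold enrichment was at RPPH1, the RNA of the tRNA processing enzyme RNase P, with 45 fragments and 8.45-fold, a gene named after its values were seen. Of 36 genes for the polymerase III machinery, 9 had a peak (25%, interval 12.1% to 42.2%, against the 13.1% of all protein-coding genes). The highest pileups were 19 fragments at SNAPC5, a subunit of the complex for small nuclear RNA promoters, 18 at MAF1, a repressor of the polymerase, 16 at its subunit gene POLR3E and 15 at both GTF3C2, of TFIIIC, and POLR1D. The peak at POLR3E was also among the 58 at tRNA genes of the other chromosomes.

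Of 23 genes for cytosolic aminoacyl-tRNA synthetases and their partners, which charge tRNAs with amino acids, 5 had a peak (21.7%, interval 7.46% to 43.7%), with 22 fragments at LARS1, 18 at TARS1, 17 at AIMP2 and 14 at YARS1. Of 29 genes for tRNA processing and modification, 7 did (24.1%, interval 10.3% to 43.5%). The intervals of the synthetases and of tRNA processing include 13.1%, and that of the machinery does too. No gene of these lists had an LV-HOXA5-NC peak, apart from 2 of the pseudogenes.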

How the data were processed

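CUT & Tag libraries with an anti-Flag antibody were sequenced from TFK-1 cells of both conditions, LV-HOXA5 and LV-HOXA5-NC, 1 library each, grouped by their labels. The submitters' processing notes name fastp, Bowtie2, deepTools, MACS2 and ChIPseeker and the build GRCh38. Per the file headers, the authors called peaks in each library alone using MACS 2.2.7.1 in its paired-end mode, with a q-value threshold of 0.05 and no control. Duplicates had been removed, which left 15778555 and 1948734 fragments, and peaks were at least 246 and 283 bp long. The deposited tables give the pileup signal in fragments, the fold enrichment as a ratio and −log10 p-values and q-values, all of which depend on depth.

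Gene ends came from the RefSeq table of GRCh38.p14, without strand. The table lists 789 genes of other scaffolds under a chromosome, and these were left out. Distances ran from the nearest peak edge to the nearest gene end. Clusters joined genes up to 10 kb apart. Shares have Clopper-Pearson 95% intervals and medians order-statistic intervals. Distances were tested on simulated data. Clusters were tested there only with genes too far apart to be joined, so the joining itself was not tested. Named genes were those with the 10 highest pileups or fold enrichments, the 3 just inside and outside 1 kb, the highest in each cluster of 5 or more genes, and the 4 highest of the polymerase III and synthetase lists. Other members named were chosen after their values were seen. The members and lists were chosen with earlier results of these data known. The alternatives changed the distance, the peak edge, the q-value, the fold enrichment, the protein-coding neighbours, the counting of clusters and the size of the move. Python 3.11.15, NumPy 2.4.6, SciPy 1.17.1, pandas 2.3.3 and Matplotlib 3.10.9 were used.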

Additional observations from a re-analysis of the deposited data

How the results depend on the processing

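Of 56 alternative values for 10 results, 46 stayed within the interval of the reported share or median, or within 1.5 times the reported count. With peaks at or above the median fold enrichment of the list, the share of tRNA genes near a peak was 7.53% on chromosomes 1 and 6 (10.6% and 5.84% apart) and 16.3% elsewhere, since fewer peaks were then counted. With each cluster counted once it was 34.3% on both chromosomes together, 46.9% on chromosome 1 and 23.7% on chromosome 6, against 44.4% elsewhere. The share elsewhere was 37.9% at 250 bp and 40.3% without a protein-coding end within 3 kb. After moves of 100 kb, 1.88% of the genes of chromosomes 1 and 6 lay near a peak, against 3.35% for 50 kb. Joining genes up to 50 kb apart left 24 groups with a peak in place of 37 clusters. The share near an LV-HOXA5-NC peak was 0 under every alternative tried, and could not have been otherwise. The nearest such peak was 71376 bp from a gene of the set, and no alternative reached beyond 3 kb. These alternatives are counted among the 46. Counting the genes on other scaffolds as without a peak, chosen after seeing the data, gave 21.7%. No paired analysis was possible because each condition had 1 library and no test was made. With no replicates, none of the intervals covers variation between libraries.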
